A study of Mus musculus with 4 samples.

Results

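The miR-26 family was examined in cultured fibroblasts of the mouse joint lining (synovium) by small RNA sequencing. Its rows were chosen by name, as every listed miRNA called miR-26a or miR-26b on either arm. The rule found 3 of the 590 listed miRNAs: mmu-miR-26a and mmu-miR-26b (miR-26a and miR-26b from here on), the guide strands from the 5′ arm of their hairpins, and mmu-miR-26b*, the strand from the 3′ arm of the miR-26b hairpin. All 3 were listed in all 4 libraries. The 3′ arms of the miR-26a hairpins have no row and were not analysed here.

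The cells came from the hind joints of 8-week-old mice on a mixed CBA/J and C57BL/6/J background and were studied at passage 4. One genotype, TghuTNF, carries a human TNF transgene and is an arthritis model. The other was wild type (WT), from littermates. The submitters describe 2 biological replicates of each genotype, and the tests rest on the variation among these 4 cultures. The promoter of the transgene is not given in the sources used here, and the labels' protocols state that the cultures were mostly, not wholly, positive for fibroblast surface markers. The comparison asks which fibroblast miRNAs differ between arthritic and healthy joints.

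miR-26 is a conserved vertebrate family whose hairpins lie in introns of the Ctdsp genes. These host genes encode small phosphatases that act on the tail of RNA polymerase II and take part in silencing neuronal genes outside the nervous system. The guides pair with target mRNAs mainly through the seed, bases 2 to 8. Known targets include Ezh2, the histone methyltransferase of the Polycomb system, and drivers of the cell cycle, and the family is known to be repressed by MYC and to take part in mesenchymal differentiation.

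The mature sequences show why the rows must be read together. They are RefSeq's, on GRCm38.p6, written 5′ to 3′ with the seed in capitals.
miR-26a: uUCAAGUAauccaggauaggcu
miR-26b: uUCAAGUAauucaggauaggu
miR-26b*: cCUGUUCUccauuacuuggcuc
The guides share their seed. Counted from 1 at the 5′ end of miR-26a, the differences to miR-26b over the 21 bases they share are C11U and C21U, and miR-26a is 22 bases long. The authors' tables allow up to 2 mismatches per match, so a read of either guide can also be counted for the other. Among 1679 mature mouse miRNAs in RefSeq, each guide had only the other within 2 differences when aligned at the first base without gaps, and only the other with the same seed. miR-26b* had none within 2 differences.

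The hairpins, with both mature arms in capitals, place the same miR-26a guide at a pair of loci and miR-26b at another.
Mir26a-1: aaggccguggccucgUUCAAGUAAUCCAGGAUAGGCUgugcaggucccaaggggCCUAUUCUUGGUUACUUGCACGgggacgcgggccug
Mir26a-2: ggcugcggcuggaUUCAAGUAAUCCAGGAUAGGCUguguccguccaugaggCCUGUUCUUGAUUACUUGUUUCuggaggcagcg
Mir26b: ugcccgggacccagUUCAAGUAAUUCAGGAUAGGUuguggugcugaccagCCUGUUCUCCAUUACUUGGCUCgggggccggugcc
In GRCm38, Mir26a-1 lies at chr9:119031796-119031885 on the plus strand, in intron 5 of the principal transcript of Ctdspl, which has 8 exons. Mir26a-2 lies at chr10:126995530-126995613 on the plus strand, in intron 5 of the principal Ctdsp2 transcript, which also has 8 exons. Its last base is the first base of exon 1 of a shorter Ctdsp2 transcript. Mir26b lies at chr1:74394310-74394394 on the plus strand, in intron 4 of the principal Ctdsp1 transcript, which has 7 exons. A miR-26a read does not show which of its loci it came from.

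Library depth was 16680860 to 27362819 matches, of which 66.0% to 70.5% were perfect. TghuTNF replicate 2 had 11.7% of its matches with 2 mismatches, against 8.21% to 8.73% in the other libraries. All 7 fibroblast marker miRNAs were listed in every library, with a summed level of 282127 to 306079 CPM (matches scaled to library size, with TMM factors). This sum was mostly miR-21 and miR-143, so it does not describe each marker. Of the 7, edgeR called 1 higher in TghuTNF and 1 lower, miR-214, beside 4.75% and 8.60% of all miRNAs tested. Summed markers of other cell types stood lower than the fibroblast sum. Muscle markers (4 of 5 listed, miR-208a without a row) stood at 2426 and 3008 CPM in WT against 2054 and 1783 in TghuTNF. Endothelial markers (2 of 2) stood at 127 and 108 CPM in WT against 68.8 and 66.7 in TghuTNF. Epithelial markers (7 of 7, miR-200a and miR-429 at 0 in some library) stood at 67.7 and 70.9 CPM against 36.8 and 30.7. Blood markers (6 of 6, miR-144 at 0 in some library) stood at 16.1 and 6.46 CPM against 28.8 and 21.6. Neural markers (5 of 5, miR-124 at 0 in some library) stood at 65.7 and 69.9 CPM against 68.4 and 80.1. The muscle, endothelial and epithelial sums were thus lower in both TghuTNF libraries, as the miR-26 rows were. The epithelial sum was mostly miR-203, so its fall does not describe the epithelial markers as a group. Relative to library size, the totals of miR-200b and miR-200c stood higher in both TghuTNF libraries than in both WT libraries. These totals can hold the same reads, so they may not be separate measurements. In every library the miR-200b matches with 2 mismatches were close in number to the perfect matches of miR-200c. Perfect matches of miR-200b were few, 0 and 4 in WT and 21 and 1 in TghuTNF (replicates 1 and 2), and the genotypes overlapped. The part of all these markers in the values that follow was not tested.

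All 3 miR-26 rows stood lower in both TghuTNF libraries than in both WT libraries, and none passed the test. With all matches counted, miR-26a stood at 1906 and 1635 CPM in WT and at 1331 and 1432 in TghuTNF. The genotypes did not overlap, with means of 1771 ± 192 and 1382 ± 71.6 CPM (SD; n = 2). The log2 fold change of TghuTNF against WT was -0.36 ± 0.17 (SE; 95% interval -0.73 to 0.016; edgeR adjusted p = 0.19), which is 1.28-fold lower. In bulk cultures, fewer cells of a type and less RNA per cell cannot be told apart.

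miR-26b, the Ctdsp1 guide, had almost the same profile in all matches, where the totals of the guides can hold the same reads. It had 2 mismatches in 81.7% to 83.6% of its matches. It stood at 2214 and 1889 CPM in WT and at 1548 and 1619.8 in TghuTNF, with means of 2052 ± 229 and 1584 ± 50.8 CPM (SD, n = 2). The genotypes again did not overlap. Its log2 fold change was -0.37 ± 0.17 (95% interval -0.74 to -0.0036; edgeR adjusted p = 0.17). The interval is for this row alone and leaves out 0, while the p adjusted over all 442 tested miRNAs did not pass 0.05.

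miR-26b*, the opposite arm of the Ctdsp1 hairpin, was scarce. It had 45 and 60 matches in WT and 39 and 46 in TghuTNF. These gave 2.74 and 2.20 CPM in WT and 1.41 and 2.04 in TghuTNF, so the higher TghuTNF library lay close to the lower WT library. The log2 fold change was -0.51 ± 0.36 (95% interval -1.32 to 0.29; edgeR adjusted p = 0.37). At these counts a change of this size could not be told from none.

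Of all 442 miRNAs tested, 13.3% were called (59), 8.60% lower and 4.75% higher in TghuTNF, and 0 of the 3 miR-26 rows were. By edgeR's unadjusted p under 0.05, miR-26b was among 128 of the 442. A lower value in both TghuTNF libraries than in both WT libraries was found for 29.9% of all tested miRNAs, so the lack of overlap is a common property of this table. The median log2 fold change over all tested miRNAs was 0.0056. There were 121 miRNAs with a more negative fold change than miR-26a and 119 with a more negative one than miR-26b. Without TghuTNF replicate 1 the number called over the table was 153, with no miR-26 row among them.

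**Figure D1:**
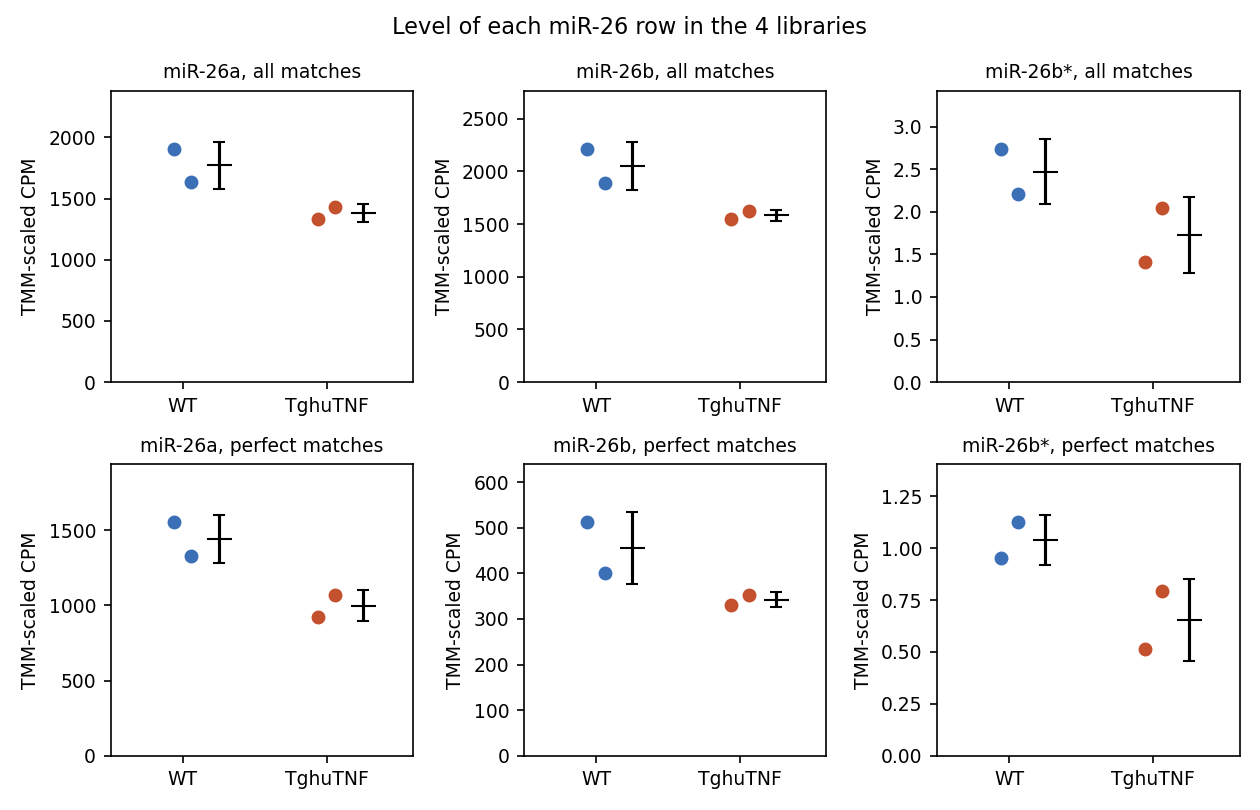
TMM-scaled CPM (y axis) of miR-26a, miR-26b and miR-26b* in the WT and TghuTNF libraries, counted from all matches in the upper row and from perfect matches in the lower row, each scaled within its own table. Points are libraries and bars are the mean ± SD (n = 2). In every panel both TghuTNF points lie below both WT points, with the narrowest relative gap for miR-26b* over all matches (2.04 against 2.20 CPM).

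The tables split the matches of each guide by mismatches. Only 16.2%, 14.5%, 15.1% and 14.7% of the miR-26b matches were perfect in WT replicates 1 and 2 and TghuTNF replicates 1 and 2, while 81.7% to 83.6% had 2 mismatches. Over all 4 libraries 83.0% of miR-26b matches had 2 mismatches. Among 307 miRNAs with a mean of at least 100 matches the median was 5.89%, and 12 of them, miR-26b included, had a share that high. miR-26a had 31.8% and 35.4% of its matches with 2 mismatches in WT and 42.6% and 40.7% in TghuTNF. The number of mismatches that separates the guides was thus also the main mismatch class of each.

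In all matches miR-26b exceeded miR-26a in every library, by a ratio of 1.13 to 1.16. In perfect matches the order was the reverse. miR-26a had 17894 perfect matches in WT replicate 1, where miR-26b had 5899, and the ratio of miR-26a to miR-26b was 3.03 and 3.32 in WT and 2.79 and 3.03 in TghuTNF. The order of the guides thus depended on whether matches with mismatches were counted. The miR-26b matches with 2 mismatches outnumbered the perfect matches of miR-26a by 1.66 and 1.74 times in WT and 1.97 and 1.87 times in TghuTNF. Which reads fill this class is not given in the tables.

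Perfect matches separate the guides. Scaled within the perfect-match table, miR-26a stood at 1553 and 1328 CPM in WT and at 925 and 1072 in TghuTNF, with means of 1440.4 ± 159.5 and 999 ± 103 CPM (SD, n = 2). The genotypes did not overlap. The log2 fold change was -0.53 ± 0.19 (95% interval -0.95 to -0.11), which is 1.44-fold lower. It had an unadjusted p = 0.019 and an edgeR adjusted p = 0.10, and did not pass. A more negative fold change was found for 82 of 380 miRNAs tested on perfect matches.

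Perfect matches of miR-26b stood at 512 and 400.5 CPM in WT and at 331 and 353 in TghuTNF. The spread within WT was larger than the gap between its lower library and the higher TghuTNF library. The log2 fold change was -0.41 ± 0.21 (95% interval -0.88 to 0.055; edgeR adjusted p = 0.22). Without WT replicate 1, the library with the highest value, it was -0.20 (edgeR adjusted p = 0.80). For miR-26b*, 11 and 21 perfect matches in WT and 10 and 12 in TghuTNF gave a log2 fold change of -0.70 ± 0.47 (95% interval -1.76 to 0.36; edgeR adjusted p = 0.36). It was -0.40 without TghuTNF replicate 1. Of the 380 miRNAs tested on perfect matches, 13.2% were called, 8.16% as lower, and 32.9% were lower in both TghuTNF libraries than in both WT libraries, while 0 of the 3 miR-26 rows were called.

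Because both guides carry the same seed, their perfect matches were also summed. The sum was 23793 and 32278 matches in WT and 24476 and 21587 in TghuTNF, which is 0.205% and 0.172% of all perfect matches in WT against 0.127% and 0.142% in TghuTNF. The summed level was thus lower in both TghuTNF libraries. In TMM-scaled CPM the means were 1888 ± 245 (WT) and 1348 ± 127 (TghuTNF; SD, n = 2). The log2 fold change was -0.49 ± 0.18 (95% interval -0.90 to -0.072; edgeR adjusted p = 0.13), with 12.9% of 379 rows called in that fit. With upper quartile factors the sum was called (-0.73, edgeR adjusted p = 0.032), a scaling that moved the median of all rows from 0.011 to -0.23. Relative to that median the sum stood at -0.50 under both scalings. The called rows split into 15 higher and 45 lower with it, against 19 higher and 30 lower with TMM.

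**Figure D2:**
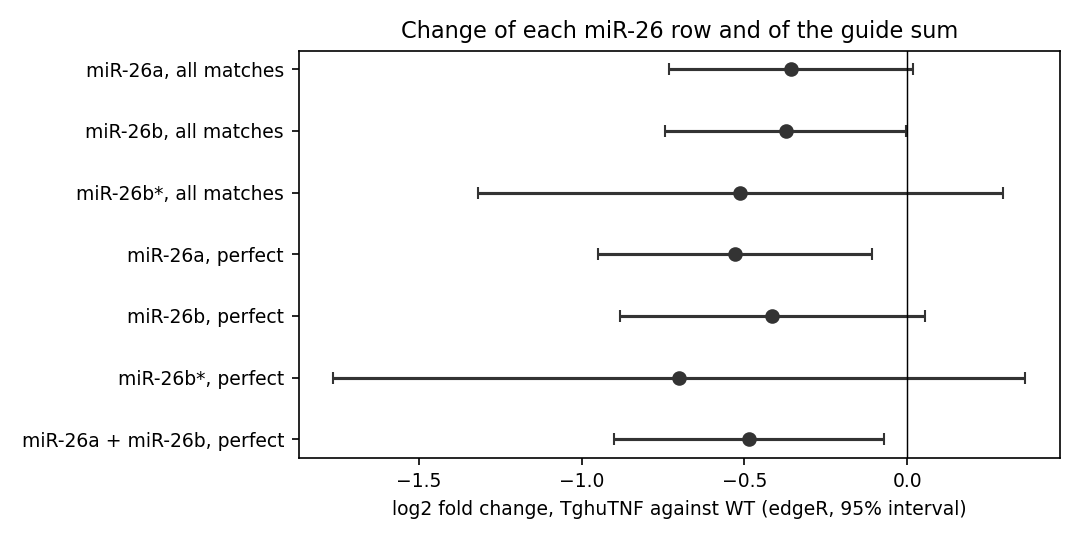
Log2 fold change of TghuTNF against WT (x axis) for each miR-26 row and for the guide sum, from edgeR, with 95% intervals that are not adjusted for multiple tests. All 7 estimates are negative, from -0.70 to -0.36, and the intervals of miR-26b* are the widest.

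The classes of miR-26a differed in how they stood between genotypes. Scaled to all matches, its perfect class stood at 999.98 ± 126 CPM in WT against 687 ± 47.9 in TghuTNF (SD, n = 2), which is a log2 ratio of -0.54. Its class with 1 mismatch, at 178 ± 46.3 and 120 ± 12.8 CPM, had a log2 ratio of -0.56. Its class with 2 mismatches stood at 607 and 579 CPM in WT and at 567 and 582 in TghuTNF, so here the genotypes overlapped, with a log2 ratio of -0.045. Scaled among matches with 2 mismatches only, a fit chosen after seeing the data, miR-26a had a log2 fold change of -0.31 (edgeR adjusted p = 0.62), so the flat value depends on the scaling. All 3 classes of miR-26b had a log2 ratio between -0.43 and -0.36.

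Accordingly the perfect share of miR-26a was 57.1% (exact 95% binomial interval 56.6% to 57.7%) and 55.7% (55.3% to 56.2%) in WT, and 49.0% (48.5% to 49.6%) and 50.3% (49.8% to 50.9%) in TghuTNF. Reads carry no molecular identifiers, so such intervals cover counting error only. The genotypes lay further apart than these intervals. Tested over 307 miRNAs with limma, the log2 odds of a perfect match differed by -0.39 ± 0.22 (SE; 95% interval -0.99 to 0.21; adjusted p = 0.81). The same for miR-26b was -0.054 ± 0.23 (95% interval -0.67 to 0.56; limma adjusted p = 0.95). limma called 0% of the 307 shares and 14 of them (4.56%) had an unadjusted p under 0.05. A lower perfect share in both TghuTNF libraries was found for 27.0% of the miRNAs, and the median difference in log2 odds over all was -0.19.

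**Figure D3:**
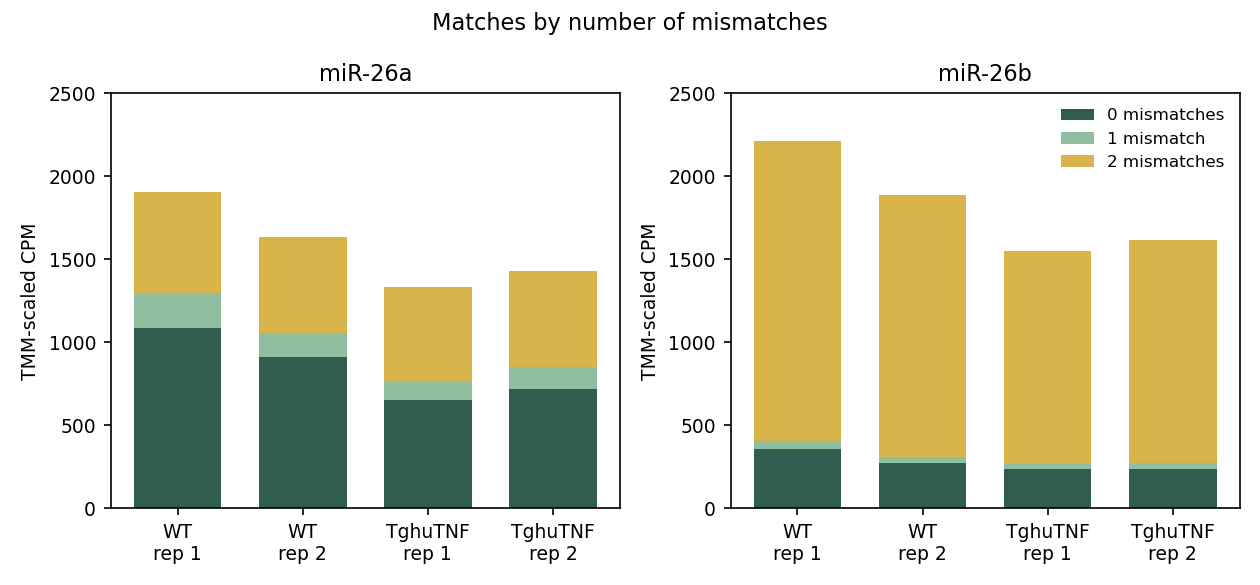
Stacked TMM-scaled CPM (y axis, scaled to all matches) of miR-26a and miR-26b in each library, split into matches with 0, 1 and 2 mismatches. The miR-26b bars are mostly matches with 2 mismatches (81.7% to 83.6%), and the miR-26a bars lose height between genotypes in the classes with 0 and 1 mismatch, while the class with 2 mismatches keeps to 567 to 607 CPM.

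The balance of the guides was set by perfect matches. miR-26b made up 24.8% of the perfect matches of the pair in WT replicate 1, with an exact 95% binomial interval of 24.2% to 25.3%, and 23.2% (22.7% to 23.6%) in WT replicate 2. In TghuTNF it made up 26.4% (25.8% to 26.9%) and 24.8% (24.2% to 25.4%). The higher WT library and the lower TghuTNF library had the same share within counting error. The log2 ratio of miR-26b to miR-26a was -1.66 ± 0.091 in WT and -1.54 ± 0.083 in TghuTNF (SD; n = 2), which differ by 0.12 (exact permutation test, two-sided, p = 0.33). With 2 against 2 libraries 0.33 is the smallest p the test can give. The difference was 0.060 without WT replicate 2, 0.065 without TghuTNF replicate 1 and 0.19 without WT replicate 1. By perfect matches miR-26b, the guide of the Ctdsp1 locus, was thus the lesser part of the pair in each library, at 23.2% to 26.4%. With all matches counted the order was the reverse, so this share covers perfect matches only.

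The arms of the miR-26b hairpin were very unequal. Perfect matches of miR-26b outnumbered those of miR-26b* by 536 and 356 times in WT and by 645 and 446 times in TghuTNF, and the libraries of the genotypes overlapped. With all matches, as the arm test was designed, the ratios were 808, 857, 1096 and 793, but these totals can hold miR-26a reads. The log2 ratio of the arms differed between genotypes by 0.16 ± 0.27 with all matches (95% interval -0.50 to 0.82; limma adjusted p = 0.87) and by 0.28 ± 0.37 with perfect matches (95% interval -0.60 to 1.16; limma adjusted p = 0.86). Across 106 hairpins with both arms measured, limma called 0% with all matches, where 6 had an unadjusted p under 0.05 (5.66%), and 0.943% with perfect matches. Without TghuTNF replicate 1 the difference with all matches was -0.071. By perfect matches mir-26b had the 22nd most unequal arms of the 106 hairpins, whose median log2 ratio was 4.36 in size.

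In level, the guides stood among the moderately abundant miRNAs of these fibroblasts. By mean perfect-match CPM miR-26a ranked 49 and miR-26b 76 of 380. miRNA reads each stand for a whole molecule of similar length, but ligation differs between sequences, so ranks compare read numbers. Next above miR-26a were miR-196a, from the Hox clusters, and miR-210, the hypoxia miRNA, at 1268 and 1555 CPM. Next below were miR-872 and miR-140, a cartilage miRNA, at 1132 and 1051 CPM. These ranks use means over both genotypes, and the order was not the same in each. miR-196a stood at 1027 and 639 CPM in WT, below miR-26a in both WT libraries, and at 1437 and 1971 in TghuTNF. miR-872 (1026 and 1149 CPM) and miR-140 (1065 and 1659.5 CPM, in replicates 1 and 2) stood above miR-26a in the same TghuTNF libraries. Around miR-26b (399 CPM) stood miR-7a (410.4 CPM), miR-99a (399.5), miR-29b (398.5) and miR-16 (395). The spread between libraries of these miRNAs was larger than the gaps between them, so their order around miR-26b is not a difference.

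**Figure D4:**
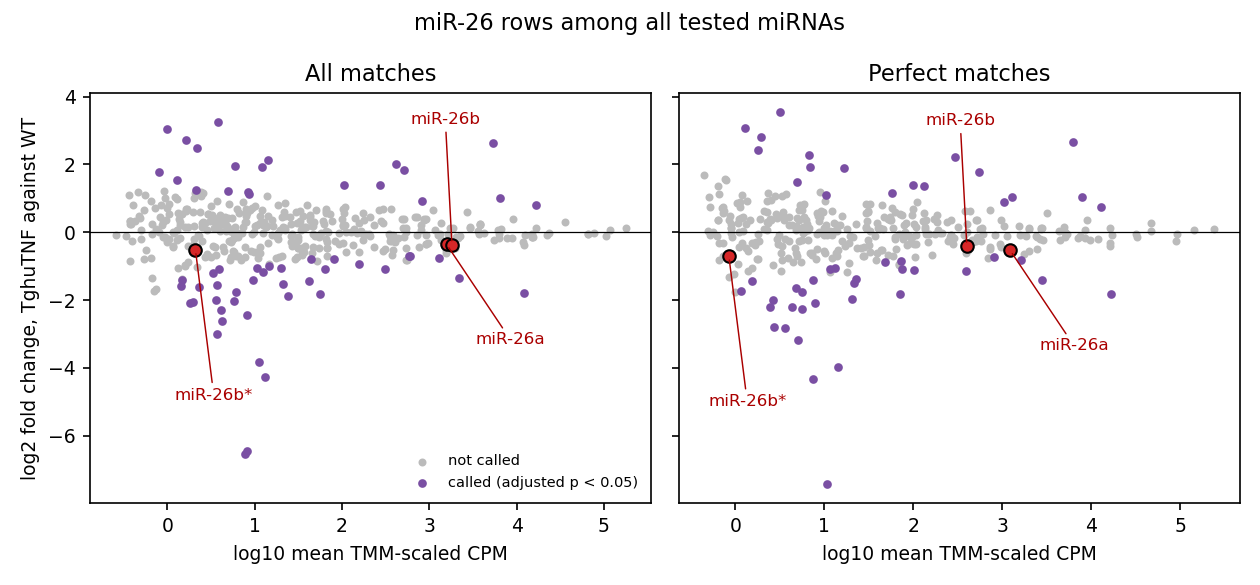
Log2 fold change of TghuTNF against WT (y axis) against mean level (x axis, log10 of TMM-scaled CPM) for the 442 miRNAs tested on all matches and the 380 tested on perfect matches. Grey points were not called, purple points were called by edgeR, and the red miR-26 points lie below 0 within the band of miRNAs that were not called.

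The profiles of the guides over the 4 libraries were compared with those of 91 other miRNAs that had a mean of at least 100 CPM and at least 50% perfect matches. The measure was the root mean square difference of log2 CPM after centring each miRNA on its mean. miR-26a and miR-26b differed by 0.016, and their totals can hold the same reads. Nearest to miR-26a were miR-152 (0.072), miR-199a-3p (0.077), miR-30e* (0.0899), miR-191 (0.095) and miR-148a (0.097), against a median of 0.25. The first 4 of these were also nearest to miR-26b, followed by miR-744 (0.099). miR-152 stood at 14138 and 13026 CPM in WT and at 9507 and 11537 in TghuTNF, with a log2 fold change of -0.37 (edgeR adjusted p = 0.16). None of these 6 miRNAs passed edgeR's test (adjusted p from 0.16 to 0.49). Over 4 libraries such likeness is a description only.

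miRNAs that are known, like miR-26, to be repressed by MYC were counted as a list. Of 26, 25 were tested on all matches, and miR-150 was not. There were 2 that rose (miR-146a, 6.22-fold, and miR-22, 2.03-fold), 0 that fell and 23 that did not pass, beside 4.75% called higher and 8.60% called lower over all miRNAs tested. Counts this small, near the shares over the whole table, are no result about the list. DESeq2 and limma-voom likewise called 2 higher and 0 lower, and by edgeR's unadjusted p under 0.05 there were 2 lower and 4 higher. Its median log2 fold change stood at -0.040, beside 0.0056 over all miRNAs, and 15 of 25 values were negative. These values are not all separate measurements, as totals of near-identical members can hold the same reads. miR-30a, miR-30d and miR-30e had near-equal totals (-0.13, -0.13 and -0.14), and only 0.24% of miR-29c matches were perfect. The most abundant members, let-7c (0.074), let-7b (-0.018) and let-7a (-0.040), stood nearer to 0 than miR-26a.

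miRNAs known, like miR-26a, to repress Ezh2 were counted in the same way. Of 17, 16 were tested and miR-124 was not. There was 1 that rose (miR-138, 2.17-fold, from 5.37 ± 1.14 to 11.7 ± 2.05 CPM), 1 that fell (miR-214, 1.90-fold, from 206 ± 70.5 to 108 ± 12.4 CPM; SD, n = 2) and 14 that did not pass. Over all miRNAs tested 13.3% were called, so this list was called at about the rate of the whole table. The call of miR-214 ended without WT replicate 1 and with limma-voom. That of miR-138 ended without WT replicate 1, without WT replicate 2 and with perfect matches only. The list's median was 0.0078, and 8 of its members, all of the let-7 family, are also in the MYC list. let-7 members differ by few bases, so their totals can also hold the same reads.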

How the data were processed

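The authors' deposited tables, 1 per library, hold raw counts of reads matched to 707 mouse mature miRNAs by mimap version 3d, with a read length of 37, up to 2 mismatches and hash length 9, per the file headers. Beside each total the authors' tables give other counts, those of matches with 0, 1 and 2 mismatches, per the file headers. Not given in the sources used here are trimming, genome build, miRBase release and the rule for reads that match several miRNAs. A read may count for more than 1 miRNA, so totals of near-identical miRNAs may not be separate measurements.

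Counts were filtered with filterByExpr, scaled with TMM and tested in edgeR 4.0.16 (R 4.3.3) by quasi-likelihood, two-sided, with genotype as the only term and Benjamini-Hochberg adjustment over all tested miRNAs (threshold 0.05). SE is the fold change over the root of F. Arm ratios and perfect shares (pseudocount 0.5; shares with a mean of at least 100 matches) were tested with limma 3.58.1. DESeq2 1.42.0 and limma-voom were alternatives. The tests were checked on simulated counts. Sequences and coordinates are from RefSeq (GRCm38.p6), where all 3 rows matched by name, and GENCODE's GRCm38 annotation.

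The members and lists were chosen with earlier results of these data known. Named miRNAs are every miR-26 row, the 5 nearest profiles and 2 neighbours in level on each side of each guide, and of each list the called and the 3 most abundant members.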

Additional observations from a re-analysis of the deposited data

How the results depend on the processing

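The log2 fold changes of miR-26a, miR-26b and miR-26b* over all matches stayed negative and above an adjusted p of 0.05 under every alternative that gave a value (14, 14 and 13 alternatives, lowest adjusted p 0.10, 0.11 and 0.14). A mean CPM of at least 100 removed miR-26b*. With all matches, leaving out each library in turn gave -0.47 to -0.24 for miR-26a, -0.49 to -0.25 for miR-26b and -0.82 to -0.34 for miR-26b*. For the guide sum of perfect matches it gave -0.63 to -0.31. On perfect matches, chosen after seeing the data, it gave -0.64 to -0.39 for miR-26a, -0.58 to -0.20 for miR-26b and -0.999 to -0.40 for miR-26b*. Such fits leave 1 library in a genotype, which is assumed to vary like the others. The guide sum passed only with upper quartile factors (-0.73). The balance of the guides was -0.015 with all matches and 0.060 to 0.19 when a library was left out. The arm difference was -0.071 to 0.39 and the perfect share difference of miR-26b -0.15 to 0.039 when a library was left out; the cause was not tested. The number of miRNAs called was 93 without the filter, 14 with a mean CPM of at least 100, 0 with 2 mismatches only (27 at an unadjusted p under 0.05), and 49 to 153 when a library was left out. In the MYC list 2 to 4 rose and 0 to 2 fell when a library was left out, and in the Ezh2 list 0 to 1 rose and 0 to 2 fell, with 0 rising on perfect matches.

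Replicate numbers are not stated to pair the cultures, and the replicate differences of the genotypes correlated at -0.088 over 442 miRNAs. With a replicate block the fold changes were -0.35 for miR-26a, -0.37 for miR-26b, -0.52 for miR-26b* and -0.48 for the guide sum, with no call changed among these, and 87 miRNAs were called over the table. The balance of the star arms of the miR-26a hairpins could not be computed, as they have no row here. Depth limits miR-26b*, whose 39 to 60 matches give a 95% interval from -1.32 to 0.29.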
